A study of Homo sapiens with 9 samples.

Results

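The hypoxia response and glycolysis genes described here are 38 listed genes with a row in the deposited count table, of 26240 genes in all. They were chosen by name and by role. The list holds 5 regulators built around the hypoxia-inducible factor (HIF), 12 HIF targets outside glycolysis, 3 carriers of glucose or lactate, and 18 enzymes of glycolysis or its control. RNA was sequenced from definitive endoderm, the germ layer that gives rise to gut, liver and pancreas, made in vitro from H9, an established human embryonic stem cell line. The 9 libraries comprise 3 from cells homozygous for a CRISPR/Cas9 deletion in CHD7 (CHD7-/-), 3 from heterozygous cells (CHD7+/-) and 3 from wild-type cells (CHD7+/+). CHD7 encodes a chromatin remodelling enzyme, and the study asked how its loss affects the formation of endoderm. The labels give all libraries the same line and cell type and the same stem cell culture medium. The sources used here do not give the oxygen level, the day of collection, the deleted interval or the number of clones. Nothing in the labels says that replicates came from separate cultures, so p-values cover only library-to-library spread, which may be technical.

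HIF is a pair of proteins, an alpha subunit such as the one encoded by HIF1A and the beta subunit encoded by ARNT. Prolyl hydroxylases (EGLN1, EGLN3) mark the alpha subunit for destruction when oxygen is present, so that its protein level is set largely after translation, and mRNA counts do not measure HIF activity. When oxygen is low, HIF binds short DNA motifs near its target genes, which include most enzymes of glycolysis, glucose carriers, the kinase PDK1 that restrains entry of pyruvate into mitochondria, and the secreted peptide adrenomedullin (ADM). Pluripotent cells and their early derivatives are known for a high rate of glycolysis.

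Library totals ranged from 11854173 to 29849352 counts in homozygous, 23488722 to 30581464 in heterozygous and 24781297 to 37519729 in wild-type cells, and homozygous replicate 1 was the shallowest. CHD7 itself stood at 43.0 to 56.1 CPM (counts scaled to library size) in homozygous libraries, 110.4 to 130.5 CPM in heterozygous libraries and 189.2 to 194.9 CPM in wild-type libraries, with no overlap between genotypes. Of 10 markers of definitive endoderm, all had a row and passed the filter, and CER1, the most abundant, averaged 4630 CPM in homozygous, 6124 CPM in heterozygous and 7245 CPM in wild-type cells. Genes were tested with edgeR's quasi-likelihood test on all 9 libraries, with Benjamini-Hochberg adjustment over 16837 genes, and were called where the adjusted p was under 0.05. The 3 comparisons share libraries in pairs and are not independent of one another. In bulk libraries such as these, fewer cells of a type and less RNA per cell cannot be told apart.

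Of the 38 genes, 37 passed the filter on low counts. In homozygous against wild-type cells, 5 of the 37 were called (13.5%), against 7.68% of all genes tested. By direction, 4 were called lower (4.18% of all genes were), namely ADM, PDK1, HIF1A and P4HA2, and 1 higher (3.50% of all genes), PFKFB4. In heterozygous against wild-type cells, 2 of 37 were called (5.41%), against 1.86% of all genes tested, and both, ADM and PDK1, were lower (1.04% of all genes were called lower and 0.820% higher). In homozygous against heterozygous cells, 2 of 37 were called (5.41%), against 2.21% of all genes, and these were again ADM and PDK1, both lower (1.22% of all genes were called lower and 0.986% higher). The median log2 fold change over the 37 genes was -0.07 in homozygous and -0.08 in heterozygous cells against wild type, and -0.03 in homozygous against heterozygous cells, while over all genes tested it was 0.01, 0.004 and 0.007. In homozygous against wild-type cells, 10 of 37 genes had all homozygous libraries below all wild-type libraries (27.0%, against 15.7% of all genes tested) and 3 had all above (8.11%, against 13.2%). In heterozygous against wild-type cells these were 10 (27.0%, against 11.1%) and 2 (5.41%, against 11.1%). Between homozygous and heterozygous cells they were 6 below (16.2%, against 10.5%) and 6 above (16.2%, against 9.02%). Leaving out wild-type replicate 2, or wild-type replicate 3, brought the 5 calls down to 2, ADM and PDK1, and leaving out homozygous replicate 1 brought them to 3.

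**Figure D1:**
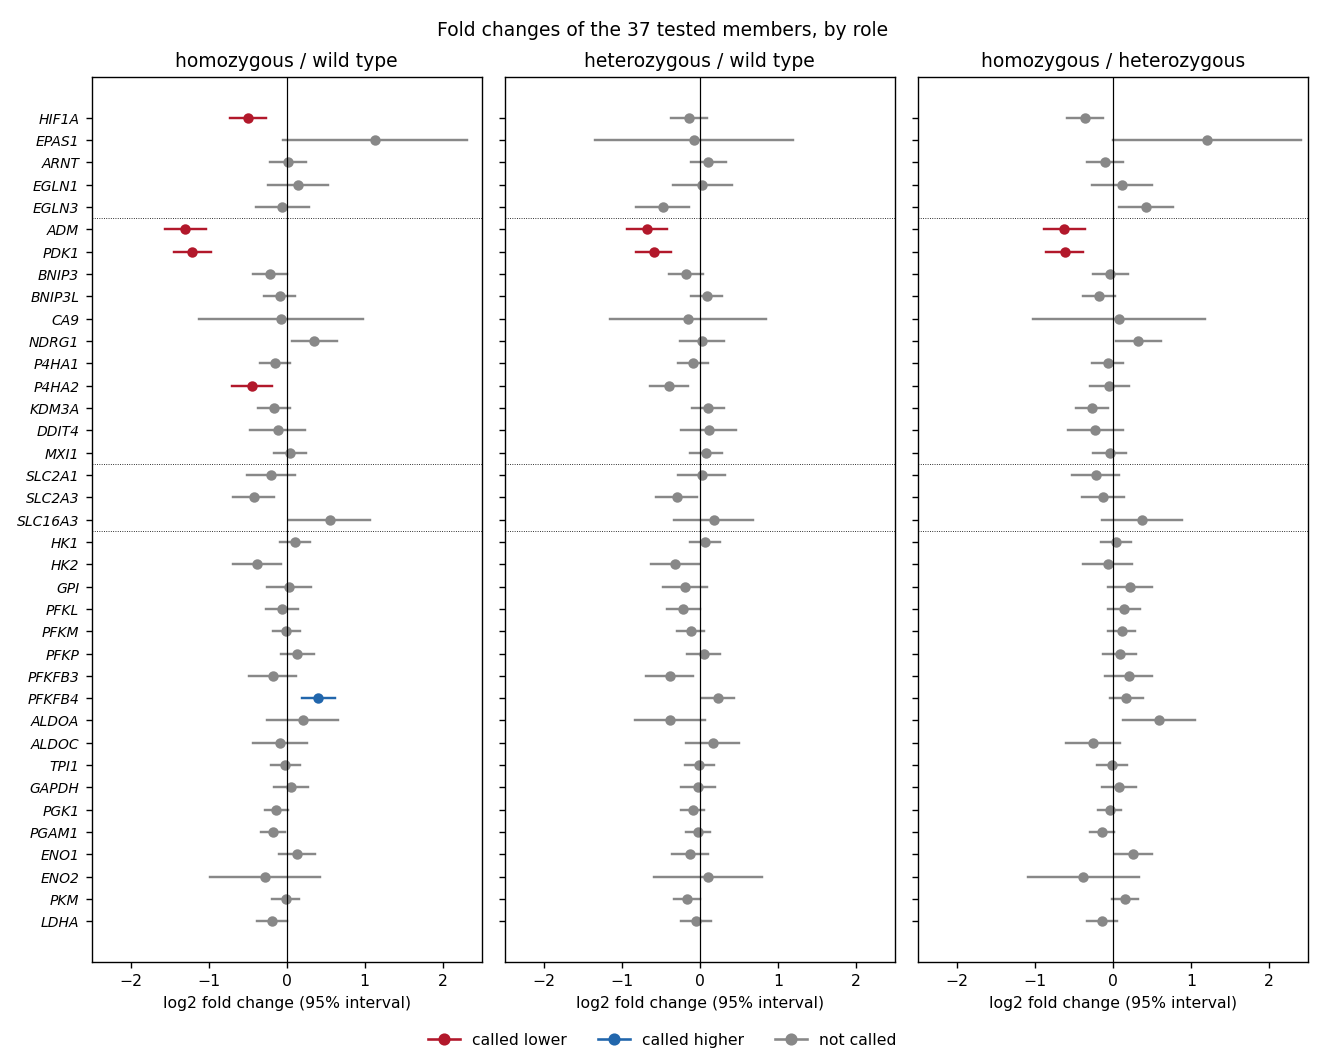
Log2 fold changes (x axis) with 95% intervals for the 37 tested genes (rows, in the order regulators, targets outside glycolysis, carriers, enzymes) in each comparison; red marks genes called lower, blue called higher and grey not called. ADM and PDK1 lie left of 0 in all 3 panels, at -1.30 and -1.21 for homozygous against wild-type cells, and the enzymes other than PFKFB4 are grey in every panel.

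Levels of different genes were compared per kilobase of merged exons, and their order depends on that length. Coding transcripts average 3915 bases in SLC2A3 and 1969 in ENO1, against 6159 and 5276 bases of merged exons. In HIF1A and LDHA they average 3764 and 1629 bases, against 5151 and 6210. GAPDH, which oxidises glyceraldehyde phosphate, was highest at 1025 CPM per kilobase in homozygous, 970.3 in heterozygous and 983.1 in wild-type cells. ENO1 (enolase) had 487.8 CPM per kilobase in homozygous, 407.5 in heterozygous and 445.1 in wild-type cells. SLC2A3, a high-affinity glucose carrier, had 361.3 CPM per kilobase in homozygous, 394.6 in heterozygous and 484.9 in wild-type cells. By merged exons it lay above ENO1 in wild-type cells and below it in the mutants, an order tied to this length. PKM, which makes pyruvate, had 360.2, 324.4 and 363.8 CPM per kilobase in homozygous, heterozygous and wild-type cells. Among the called genes, HIF1A had 45.4 CPM per kilobase in homozygous, 58.1 in heterozygous and 63.8 in wild-type cells. By merged exons, though not by coding length, this was near LDHA (45.9, 50.6 and 52.3 in homozygous, heterozygous and wild-type cells). ADM had 7.90 CPM per kilobase in homozygous, 12.2 in heterozygous and 19.5 in wild-type cells, and PDK1 had 1.78, 2.72 and 4.10 CPM per kilobase in homozygous, heterozygous and wild-type cells. CA9 and ANKRD37, both used elsewhere as markers of hypoxia, were at or near the floor of the measurement. CA9, a carbonic anhydrase at the cell surface, had 0.199 to 0.752 CPM in homozygous, 0.254 to 0.402 CPM in heterozygous and 0.361 to 0.402 CPM in wild-type libraries, and ANKRD37 had 0.150 to 0.364, 0.130 to 0.424 and 0.164 to 0.291 CPM in homozygous, heterozygous and wild-type libraries. ANKRD37 was the gene that did not pass the filter.

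ADM encodes the precursor of adrenomedullin, a secreted peptide that widens vessels and acts on endothelial cells. It lies on the plus strand of chromosome 11 (chr11:10304680-10307397, GRCh38, GENCODE 29; ENSG00000148926). ADM had 19.1, 21.2 and 24.2 CPM in homozygous libraries 1 to 3, 36.9, 34.8 and 27.8 CPM in heterozygous libraries and 55.7, 52.5 and 51.0 CPM in wild-type libraries. All homozygous libraries lay below all heterozygous libraries, which in turn lay below all wild-type libraries. ADM fell by 1.30 on the log2 scale in homozygous against wild-type cells (SE 0.12, 95% interval -1.56 to -1.04, edgeR adjusted p = 3.10e-05), a level 0.406 times that of wild type. It fell by 0.68 in heterozygous against wild-type cells (SE 0.12, interval -0.93 to -0.42, adjusted p = 0.00884) and by 0.62 in homozygous against heterozygous cells (SE 0.12, interval -0.88 to -0.36, adjusted p = 0.0191). The first of these calls held in all 20 alternative settings, with log2 values of -1.39 to -1.23. The difference between the mutants did not pass without heterozygous replicate 1 (adjusted p = 0.0607) or 2 (0.0901), nor without homozygous replicate 1 (0.0621) or 2 (0.0579). With the test against a 1.5-fold change and the 6 libraries of the comparison alone, 6 of 20 alternatives lost this call.

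PDK1 encodes a kinase that phosphorylates and switches off pyruvate dehydrogenase. It lies on the plus strand of chromosome 2 (chr2:172555373-172608669, GRCh38, GENCODE 29; ENSG00000152256). PDK1 had 29.0, 24.6 and 26.0 CPM in homozygous libraries 1 to 3, 42.5, 42.9 and 36.0 CPM in heterozygous libraries and 67.3, 60.2 and 55.5 CPM in wild-type libraries. The 3 genotypes did not overlap, in the same order as for ADM. PDK1 fell by 1.21 on the log2 scale in homozygous against wild-type cells (SE 0.11, 95% interval -1.44 to -0.97, edgeR adjusted p = 2.37e-05), a level 0.433 times that of wild type. It fell by 0.59 in heterozygous against wild-type cells (SE 0.11, interval -0.82 to -0.36, adjusted p = 0.0112) and by 0.62 in homozygous against heterozygous cells (SE 0.11, interval -0.85 to -0.38, adjusted p = 0.0106). The first call held in all 20 alternative settings, with log2 values of -1.27 to -1.13. Leaving out wild-type replicate 2 ended the heterozygous call (adjusted p = 0.0553), and leaving out heterozygous replicate 2 ended the call between the mutants (adjusted p = 0.0655). PDK1-AS1, an antisense transcript, shares 445 bases with PDK1 exons (2.99% of them), and the sources used here do not say whether the authors counted by strand. PDK1-AS1 averaged 1.47 CPM in homozygous and 1.99 CPM in wild-type cells (log2 fold change -0.45, adjusted p = 0.251), well under the level of PDK1.

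**Figure D2:**
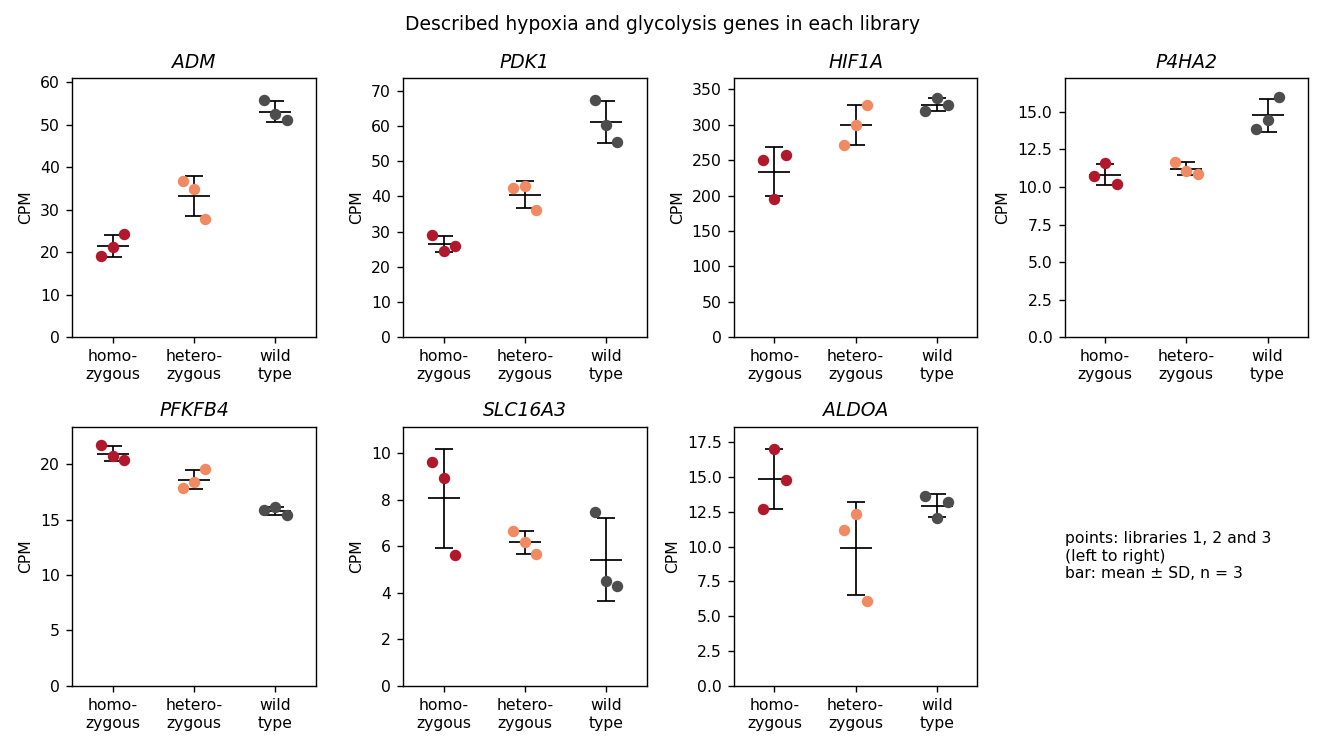
CPM (y axis, from 0) of the 7 genes that met the rule for description library by library. Homozygous, heterozygous and wild-type cells run from left to right in each panel. Points are libraries 1 to 3 and bars the mean ± SD (n = 3). ADM and PDK1 step up from homozygous (19.1 to 24.2 and 24.6 to 29.0 CPM) through heterozygous to wild-type libraries (51.0 to 55.7 and 55.5 to 67.3 CPM) without overlap, and PFKFB4 runs the other way.

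The DNA before the transcription start of these genes is shown beside that of targets that were not called, because HIF is known to bind the core letters ACGTG and GCGTG. Sequences are from RefSeq (GRCh38.p14), 250 bases ending just before an annotated start, on the strand of the gene. Capitals mark every match to either motif on either strand, so that CACGT and CACGC are matches read from the other strand, and CACGTG is a match to ACGTG on both strands. ADM and PDK1 fell in all 3 comparisons, P4HA2 fell and PFKFB4 rose in homozygous against wild-type cells, and LDHA and BNIP3 were called in no comparison.
ADM (chr11:10304823-10305072, plus strand): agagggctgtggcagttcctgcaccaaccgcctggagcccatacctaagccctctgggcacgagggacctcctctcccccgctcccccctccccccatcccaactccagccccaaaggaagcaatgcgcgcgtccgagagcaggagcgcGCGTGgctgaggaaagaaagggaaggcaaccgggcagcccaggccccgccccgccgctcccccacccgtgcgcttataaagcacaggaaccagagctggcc
PDK1 (chr2:172555840-172556089, plus strand): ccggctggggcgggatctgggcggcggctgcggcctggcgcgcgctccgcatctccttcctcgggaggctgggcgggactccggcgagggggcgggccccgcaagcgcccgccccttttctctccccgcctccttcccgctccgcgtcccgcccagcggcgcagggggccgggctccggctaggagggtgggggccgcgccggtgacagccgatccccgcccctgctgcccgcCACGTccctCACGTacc
P4HA2 (chr5:132227092-132227341, minus strand): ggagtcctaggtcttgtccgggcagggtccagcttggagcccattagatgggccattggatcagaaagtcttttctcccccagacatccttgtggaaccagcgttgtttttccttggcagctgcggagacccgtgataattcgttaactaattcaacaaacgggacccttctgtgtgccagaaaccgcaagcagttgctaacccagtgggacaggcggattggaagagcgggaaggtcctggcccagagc
PFKFB4 (chr3:48556804-48557053, minus strand): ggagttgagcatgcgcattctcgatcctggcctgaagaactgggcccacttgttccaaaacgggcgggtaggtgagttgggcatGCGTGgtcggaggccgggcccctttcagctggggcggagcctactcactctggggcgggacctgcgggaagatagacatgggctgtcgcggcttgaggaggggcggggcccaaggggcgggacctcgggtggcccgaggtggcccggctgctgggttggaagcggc
LDHA (chr11:18394313-18394562, plus strand): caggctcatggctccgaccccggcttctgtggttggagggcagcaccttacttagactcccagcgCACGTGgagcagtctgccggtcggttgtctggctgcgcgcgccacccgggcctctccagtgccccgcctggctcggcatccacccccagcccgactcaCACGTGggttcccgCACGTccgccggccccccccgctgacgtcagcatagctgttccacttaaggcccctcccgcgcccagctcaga
BNIP3 (chr10:131981924-131982173, minus strand): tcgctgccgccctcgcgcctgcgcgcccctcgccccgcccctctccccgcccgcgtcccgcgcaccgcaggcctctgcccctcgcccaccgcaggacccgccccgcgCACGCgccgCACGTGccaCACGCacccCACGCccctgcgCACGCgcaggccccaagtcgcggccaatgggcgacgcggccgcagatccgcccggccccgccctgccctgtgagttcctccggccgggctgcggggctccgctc

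The ADM stretch held 1 GCGTG, starting 101 bases before the start, and the PDK1 stretch held 2 ACGTG on the other strand, at 17 and 8 bases before the start. The P4HA2 stretch held neither motif and the PFKFB4 stretch held 1 GCGTG. Of genes that were not called, the LDHA stretch held 5 matches to ACGTG and the BNIP3 stretch 2 to ACGTG and 4 to GCGTG. A match that reads the same on both strands counts as 2 of these. LDHA and BNIP3 were picked for printing, and the windows of ARNT, EGLN3 and PGAM1, also not called, held no match. PDK1 and LDHA each have another annotated start in the table, and the one of PDK1 held no match. Over windows of 300 bases, 250 before and 50 after the start, 35 of the 38 genes had at least 1 window, 65 windows in all. BNIP3L, NDRG1 and SLC2A3 had none in the table. ACGTG was found in 25 of the 65 windows (38.5%), against 21.4% of all 35116 windows. GCGTG was found in 27 (41.5%), against 36.5% of all windows, and either motif in 43 (66.2%), against 48.4%. In all, 31 of the 35 genes had a match in at least 1 window, so a match was common to genes that were called and genes that were not. Windows of the same gene can overlap, and these shares describe sequence letters, not binding.

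**Figure D3:**
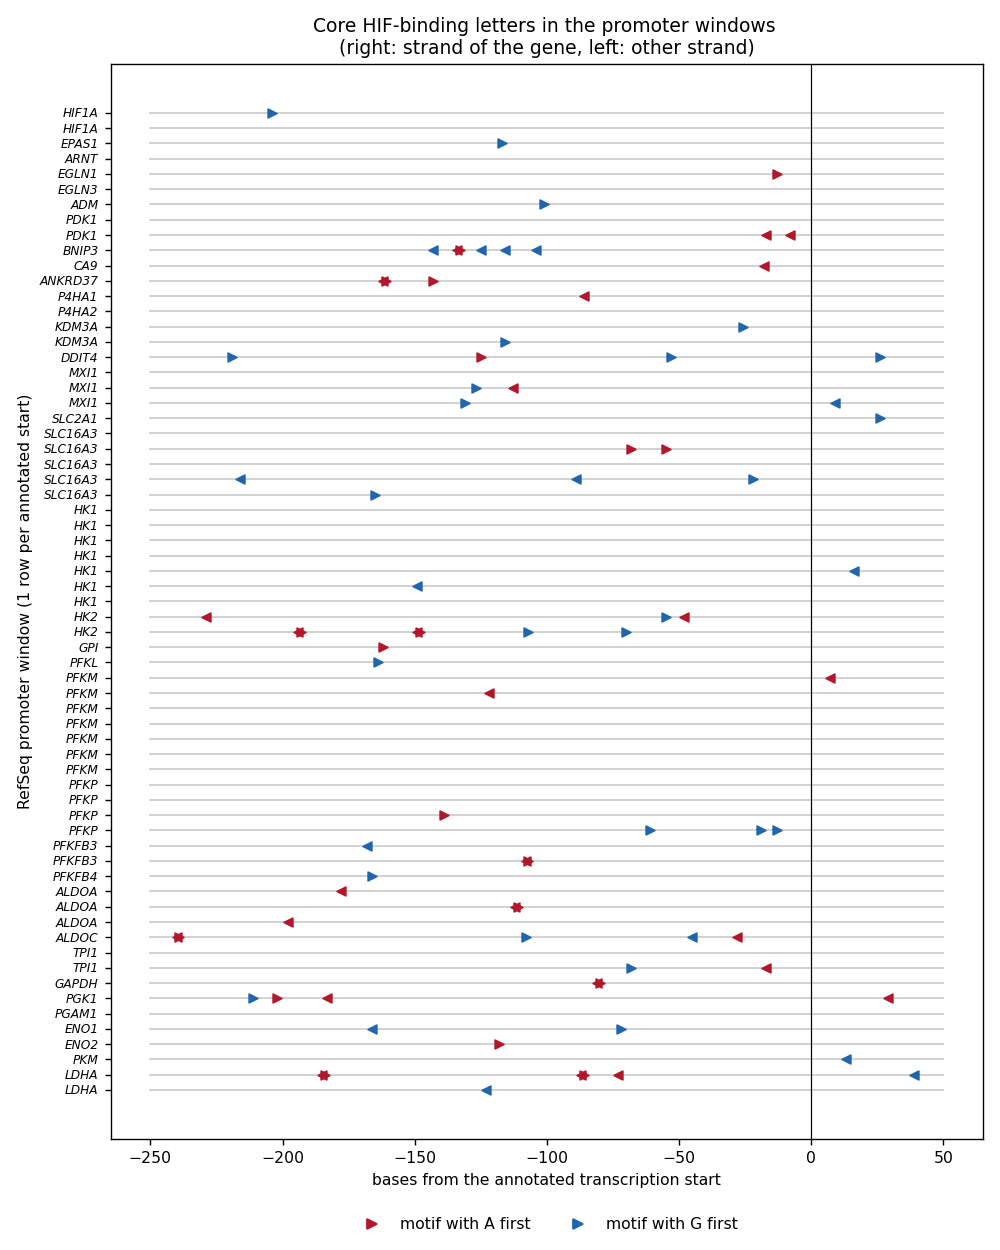
Matches to the core motifs, one starting with A (red) and the other with G (blue), in each of the 65 promoter windows (rows), by distance in bases from the annotated start (x axis); triangles point right for a match on the strand of the gene and left for the other strand, and both lie over each other where a match reads the same on both strands. The matches before the start stand close to it in PDK1 and further upstream in ADM, LDHA and BNIP3, 1 match of LDHA lies after it, and several rows of HK1 and PFKM have none.

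Among the other HIF targets outside glycolysis, P4HA2 was the 1 further gene called. It encodes a subunit of prolyl hydroxylase, which modifies collagen chains, and lies at chr5:132191838-132295315 on the minus strand (GRCh38, GENCODE 29; ENSG00000072682). P4HA2 had 10.7, 11.6 and 10.2 CPM in homozygous libraries 1 to 3, 11.7, 11.0 and 10.9 CPM in heterozygous libraries and 13.9, 14.5 and 16.0 CPM in wild-type libraries. Homozygous and heterozygous libraries overlapped, and both lay below all wild-type libraries. P4HA2 fell by 0.44 on the log2 scale in homozygous against wild-type cells (SE 0.12, edgeR adjusted p = 0.0340). Its log2 fold change was -0.40 in heterozygous against wild-type cells (SE 0.11, adjusted p = 0.121) and between homozygous and heterozygous cells -0.05 (SE 0.12, adjusted p = 0.858). The homozygous call was among the least stable, since 11 of 20 alternative settings lost it. These included leaving out wild-type replicate 1 (adjusted p = 0.0523), 2 (0.116) or 3 (0.158), heterozygous replicate 2 (0.0600), and homozygous replicate 1 (0.0878) or 3 (0.0627). P4HA1, which encodes the related subunit, had 94 to 105 CPM in homozygous, 101 to 112 CPM in heterozygous and 100.3 to 121 CPM in wild-type libraries, which overlapped (homozygous against wild type -0.15, adjusted p = 0.337).

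The 8 remaining tested targets were called in no comparison. Against wild type their log2 fold changes ran from -0.21 to 0.35 in homozygous cells (lowest adjusted p 0.133) and from -0.18 to 0.11 in heterozygous cells (lowest adjusted p 0.490), and between the mutants from -0.27 to 0.33 (lowest adjusted p 0.160). BNIP3 and BNIP3L encode mitochondrial receptors for mitophagy. BNIP3 had 161, 170.5 and 176 CPM in homozygous libraries, 164, 153 and 202 CPM in heterozygous libraries and 182, 199 and 207 CPM in wild-type libraries. Homozygous libraries lay below all wild-type libraries and heterozygous libraries spanned both (homozygous against wild type -0.21, SE 0.10, adjusted p = 0.238). NDRG1, a stress-responsive gene, had 10.9, 8.81 and 10.9 CPM in homozygous libraries, 8.24, 8.04 and 8.01 CPM in heterozygous libraries and 7.80, 7.48 and 8.59 CPM in wild-type libraries. All homozygous NDRG1 values lay above the rest (homozygous against wild type 0.35, SE 0.13, adjusted p = 0.133; homozygous against heterozygous 0.33, SE 0.13, adjusted p = 0.224). KDM3A, a histone H3 lysine demethylase, had 38.9 to 44.5 CPM in homozygous, 45.8 to 55.4 CPM in heterozygous and 45.4 to 49.1 CPM in wild-type libraries, with the homozygous values below both other genotypes (adjusted p = 0.325 against wild type and 0.160 against heterozygous). DDIT4, an inhibitor of mTOR signalling, and MXI1, an antagonist of MYC, overlapped between genotypes in every comparison. Summed over the 12 targets, the level was 461.6 to 479.9 CPM in homozygous, 505.9 to 549.3 CPM in heterozygous and 574.1 to 592.8 CPM in wild-type libraries. ADM and PDK1 carried much of this difference: the other 10 targets summed to 415.9 to 429.6 CPM in homozygous, 426.5 to 485.4 CPM in heterozygous and 451.1 to 480.04 CPM in wild-type libraries, and heterozygous libraries then overlapped both other genotypes.

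Of the 5 regulators, HIF1A was called in homozygous against wild-type cells. It lies at chr14:61695513-61748259 on the plus strand (GRCh38, GENCODE 29; ENSG00000100644). HIF1A had 249.6, 195 and 258 CPM in homozygous libraries 1 to 3, 271, 299 and 328 CPM in heterozygous libraries and 320.2, 338 and 327 CPM in wild-type libraries. Homozygous libraries lay below all others, with replicate 2 lowest, while heterozygous libraries ran into the wild-type range. HIF1A fell by 0.49 on the log2 scale in homozygous against wild-type cells (SE 0.11, 95% interval -0.72 to -0.26, edgeR adjusted p = 0.0136), a level 0.711 times that of wild type. The log2 fold change was -0.13 in heterozygous against wild-type cells (SE 0.11, adjusted p = 0.655) and -0.36 in homozygous against heterozygous cells (SE 0.11, adjusted p = 0.107). Leaving out wild-type replicate 2 or 3 ended the homozygous call (adjusted p = 0.0707 and 0.0521). HIF1A-AS1, an opposite-strand transcript that shares 117 bases with HIF1A exons (2.27%), averaged 0.760 CPM in homozygous and 1.37 CPM in wild-type cells (log2 fold change -0.91, adjusted p = 0.123).

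The other regulators were called in no comparison. ARNT had 44.7 to 53.0 CPM in homozygous, 44.9 to 59.0 CPM in heterozygous and 46.9 to 50.1 CPM in wild-type libraries, all overlapping (homozygous against wild type 0.01, 95% interval -0.22 to 0.25). EGLN3 had 19.8, 20.2 and 25.8 CPM in homozygous libraries, 18.2, 15.9 and 14.9 CPM in heterozygous libraries and 17.9, 23.8 and 26.8 CPM in wild-type libraries. All heterozygous EGLN3 values lay below all homozygous ones but reached the lowest wild-type library (heterozygous against wild type -0.48, SE 0.16, adjusted p = 0.181; homozygous against heterozygous 0.42, SE 0.16, adjusted p = 0.184). EGLN1 had 4.68 to 6.33 CPM in homozygous, 4.24 to 5.64 CPM in heterozygous and 4.44 to 5.31 CPM in wild-type libraries, which overlapped. EPAS1, which encodes the alpha subunit HIF2A, had 0.919, 0.430 and 1.15 CPM in homozygous libraries, 0.293, 0.365 and 0.381 CPM in heterozygous libraries and 0.241, 0.164 and 0.747 CPM in wild-type libraries. At this depth its fold change was poorly determined (homozygous against wild type 1.13, 95% interval -0.05 to 2.31, adjusted p = 0.236). Among 12 further genes of oxygen sensing, 1 was called in homozygous against wild-type cells (8.33%, against 7.68% of all genes, a share near the background) and 0 in the other comparisons (against 1.86% and 2.21%). This was HIF3A, an alpha subunit with splice forms known to restrain HIF, which had 30.9, 30.2 and 27.1 CPM in homozygous libraries, 24.5, 23.7 and 24.7 CPM in heterozygous libraries and 23.8, 19.7 and 20.8 CPM in wild-type libraries. Its homozygous libraries lay above all others, and it rose by 0.45 on the log2 scale against wild type (SE 0.10, edgeR adjusted p = 0.0165). VHL, which targets the alpha subunit for destruction, had a log2 fold change of 0.14 in homozygous against wild-type cells (adjusted p = 0.381).

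The 3 carriers were not called. SLC2A3 had 2087, 1840.0 and 2749.8 CPM in homozygous libraries, 2356, 2435 and 2500 CPM in heterozygous libraries and 2765, 3061 and 3133 CPM in wild-type libraries. Homozygous replicate 3 stood above the other homozygous libraries and just below the lowest wild-type library. The log2 fold change in homozygous against wild-type cells was -0.42 (SE 0.12, adjusted p = 0.0549), and SLC2A3 was called lower in 5 of the 20 alternatives, among them without homozygous replicate 3 and with DESeq2. SLC2A14, a close paralog whose reads the counting could mix with those of SLC2A3, had 24.1 to 41.2 CPM in homozygous, 30.0 to 42.3 CPM in heterozygous and 37.8 to 44.4 CPM in wild-type libraries. SLC2A1, the widespread glucose carrier, had 78.2, 84.2 and 60.8 CPM in homozygous libraries, 96.5, 96.5 and 67.6 CPM in heterozygous libraries and 85.7, 85.8 and 85.4 CPM in wild-type libraries. The third library was lowest in both mutants. All homozygous SLC2A1 values lay below all wild-type values, but the difference was not called (homozygous against wild type -0.20, SE 0.14, edgeR adjusted p = 0.417). SLC16A3, which exports lactate, had 9.61, 8.90 and 5.63 CPM in homozygous libraries, 6.64, 6.18 and 5.68 CPM in heterozygous libraries and 7.46, 4.53 and 4.28 CPM in wild-type libraries. Libraries of all genotypes overlapped, with homozygous replicate 3 and wild-type replicate 1 apart from the other libraries of their genotype. Its log2 fold change was 0.55 in homozygous against wild-type cells (SE 0.24, edgeR adjusted p = 0.183), 0.18 between heterozygous and wild-type cells (adjusted p = 0.815) and 0.37 between the mutants (adjusted p = 0.415). Without homozygous replicate 3 the first value was 0.75 (adjusted p = 0.0423), and without wild-type replicate 1 it was 0.86 (adjusted p = 0.0465).

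Of the 18 enzymes, 1 was called in homozygous against wild-type cells (5.56%, against 7.68% of all genes) and 0 in the other comparisons (against 1.86% and 2.21%). This was PFKFB4, which makes and breaks down fructose 2,6-bisphosphate, an activator of phosphofructokinase (chr3:48517684-48562015, minus strand, GRCh38, GENCODE 29; ENSG00000114268). PFKFB4 had 21.7, 20.7 and 20.4 CPM in homozygous libraries 1 to 3, 17.8, 18.4 and 19.5 CPM in heterozygous libraries and 15.9, 16.1 and 15.4 CPM in wild-type libraries. The genotypes did not overlap, with homozygous highest and wild type lowest, the reverse of the order for ADM and PDK1. It rose by 0.41 on the log2 scale in homozygous against wild-type cells (SE 0.096, 95% interval 0.20 to 0.61, edgeR adjusted p = 0.0219). The log2 fold change was 0.23 in heterozygous against wild-type cells (SE 0.095, adjusted p = 0.304) and 0.17 in homozygous against heterozygous cells (SE 0.096, adjusted p = 0.360). Leaving out wild-type replicate 1 (adjusted p = 0.0671), 2 (0.0859) or 3 (0.110), or homozygous replicate 1 (0.0685), ended the homozygous call. With the test against a 1.5-fold change and thinning to the shallowest library, 6 of 20 alternatives lost it.

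ALDOA, the main muscle-type aldolase, is described because its log2 fold change exceeded 0.5 between the mutants. It had 12.7, 17.0 and 14.8 CPM in homozygous libraries, 11.2, 12.3 and 6.10 CPM in heterozygous libraries and 13.6, 12.0 and 13.2 CPM in wild-type libraries. Homozygous libraries lay above all heterozygous libraries, of which replicate 3 was far below the other two, and overlapped the wild-type libraries. The log2 fold change was 0.59 in homozygous against heterozygous cells (SE 0.21, edgeR adjusted p = 0.171), 0.20 between homozygous and wild-type cells (adjusted p = 0.588) and -0.38 between heterozygous and wild-type cells (adjusted p = 0.458). The count of ALDOA is uncertain, because 1657 bases of its exons (42.3%) are shared with another protein-coding gene annotated on the same strand (ENSG00000285043), and reads there may not have been assigned to ALDOA. At 3.79 CPM per kilobase in homozygous, 2.52 in heterozygous and 3.31 in wild-type cells, ALDOA stood far below GAPDH and TPI1 (223.4, 225.4 and 226.2 CPM per kilobase in homozygous, heterozygous and wild-type cells), the enzymes next to it in the pathway.

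The 16 other enzymes ran from -0.38 to 0.14 on the log2 scale in homozygous against wild-type cells (lowest adjusted p 0.129), from -0.38 to 0.17 between heterozygous and wild-type cells (lowest adjusted p 0.236) and from -0.38 to 0.26 between the mutants (lowest adjusted p 0.229). For several, the interval of the difference was narrow. For GAPDH the 95% interval of the log2 fold change in homozygous against wild-type cells was -0.16 to 0.28, for TPI1 -0.21 to 0.17, for PKM -0.18 to 0.15 and for PFKM, a phosphofructokinase, -0.18 to 0.17. PGK1 and PGAM1, which carry out successive steps after GAPDH, had all homozygous libraries below all wild-type libraries. PGK1 had 407 to 429 CPM in homozygous, 409.9 to 442 CPM in heterozygous and 451 to 459.5 CPM in wild-type libraries (homozygous against wild type -0.13, SE 0.07, adjusted p = 0.273). PGAM1 had 347 to 381 CPM in homozygous, 387 to 403 CPM in heterozygous and 400.9 to 411 CPM in wild-type libraries (homozygous against wild type -0.17, SE 0.07, adjusted p = 0.164). LDHA, which turns pyruvate into lactate, had 297, 258 and 299.6 CPM in homozygous libraries, 299.7, 315 and 329 CPM in heterozygous libraries and 294, 336 and 344 CPM in wild-type libraries. LDHA libraries of homozygous and wild-type cells overlapped through wild-type replicate 1 (homozygous against wild type -0.19, SE 0.09, adjusted p = 0.220).

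HK2, the inducible hexokinase, had 33.4, 32.5 and 48.7 CPM in homozygous libraries, 37.6, 41.7 and 41.2 CPM in heterozygous libraries and 43.8, 54.1 and 51.9 CPM in wild-type libraries. As with SLC2A3, homozygous replicate 3 stood apart from the other homozygous libraries, here inside the wild-type range. The log2 fold change was -0.38 in homozygous against wild-type cells (SE 0.14, adjusted p = 0.129), and HK2 was called lower without homozygous replicate 3. HK1, the constitutive hexokinase, had 87.3 to 90.4 CPM in homozygous, 77.6 to 90.8 CPM in heterozygous and 75.0 to 86.4 CPM in wild-type libraries (homozygous against wild type 0.11, adjusted p = 0.484). ENO2, the neuronal enolase, varied widely among replicates, with 30.9, 32.0 and 13.4 CPM in homozygous libraries, 41.0, 35.6 and 22.3 CPM in heterozygous libraries and 44.8, 23.6 and 23.6 CPM in wild-type libraries. Summed over the 18 enzymes, the level was 10648 to 11617 CPM in homozygous, 9470 to 10905 CPM in heterozygous and 10563 to 11406 CPM in wild-type libraries, or 1.08% to 1.18%, 0.951% to 1.10% and 1.05% to 1.11% of the counted reads. These ranges overlapped. Adding the counts of pseudogene rows to the 11 genes that have them moved no log2 fold change by more than 0.004 and changed 0 calls.

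**Figure D4:**
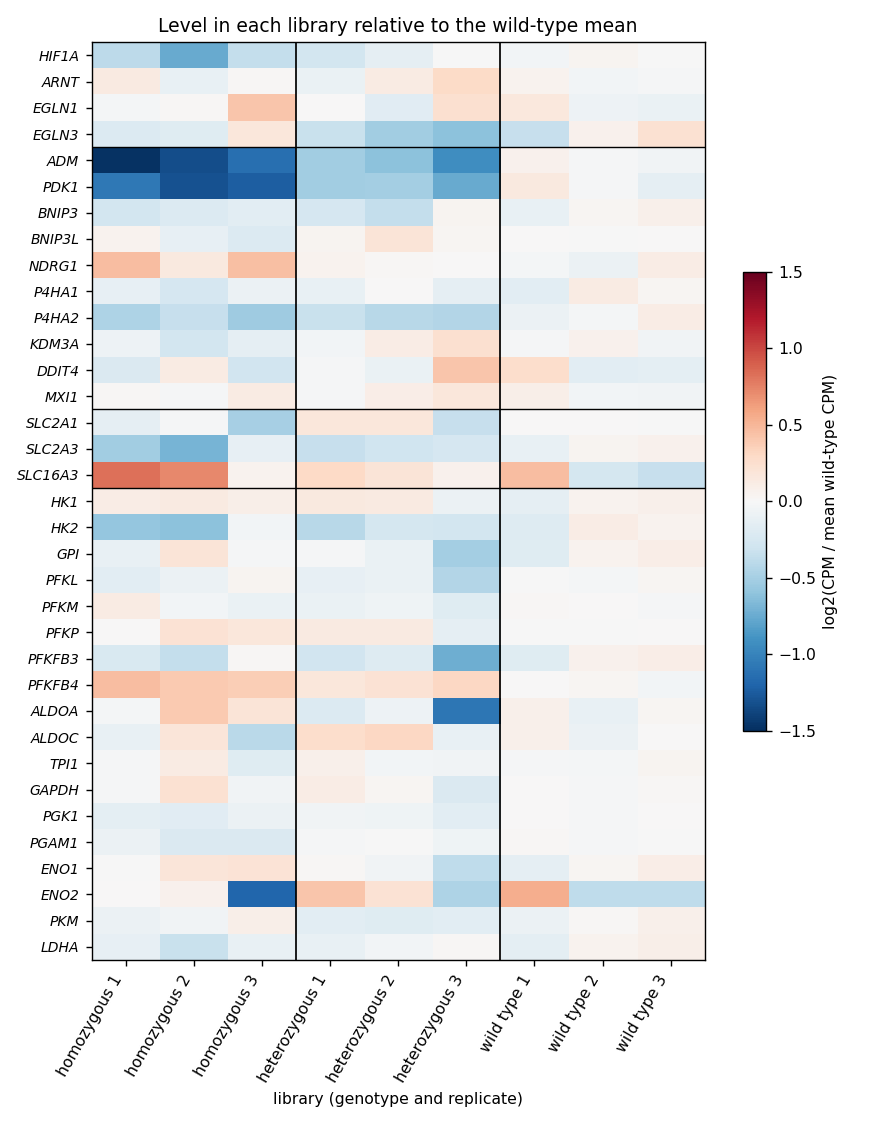
Level of 35 genes (rows, by role) in each library (columns, homozygous, heterozygous and wild type from left to right) as log2 of CPM over the wild-type mean, from -1.5 (blue) to 1.5 (red); CA9, EPAS1 and ANKRD37, mostly under 1 CPM, are left out. ADM and PDK1 are blue in all homozygous libraries, at -1.48 to -1.13 and -1.31 to -1.07, while ENO2 is as dark, at -1.19, in homozygous replicate 3 alone.

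Shares within groups of related transcripts do not depend on how libraries are scaled, and were computed per kilobase of merged exons for groups chosen after the values were seen. PDK1 made up 13.8% ± 0.62 of the summed level of PDK1, PDK2 and PDK3 in homozygous cells, 18.6% ± 1.34 in heterozygous cells and 27.1% ± 1.03 in wild-type cells (SD, n = 3 each). The libraries ran from 13.1% to 14.2% in homozygous, 17.3% to 19.9% in heterozygous and 26.3% to 28.2% in wild-type cells, without overlap. PDK2 and PDK3, kinases of the same enzyme, had log2 fold changes of 0.06 (adjusted p = 0.735) and -0.02 (adjusted p = 0.918) between homozygous and wild-type cells. PDK4, the fourth kinase, had 0 to 0.208 CPM in all libraries and was not tested. Of the 12 tested genes of pyruvate dehydrogenase and its regulators, 0 were called in homozygous or heterozygous against wild-type cells or between the mutants. Of all genes, 7.68%, 1.86% and 2.21% were. Log2 values of the 12 genes ran from -0.38 to 0.06 in homozygous against wild-type cells, with 9 below 0 and 3 above. The lowest was that of DLAT (edgeR adjusted p = 0.0542). In that comparison 4 of the 12 had all homozygous libraries below all wild-type libraries (33.3%, against 15.7% of all genes). All lay above in 0 of them (against 13.2%).

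HIF1A made up 92.5% ± 1.25 of the summed alpha subunits in homozygous, 95.1% ± 0.43 in heterozygous and 96.1% ± 0.47 in wild-type cells, and HIF3A made up 7.28% ± 1.33, 4.77% ± 0.43 and 3.87% ± 0.47 in homozygous, heterozygous and wild-type cells (SD, n = 3 each). The homozygous libraries did not overlap the others in either share. HK1 made up 69.3% ± 5.23 of the summed hexokinases HK1 and HK2 in homozygous, 67.3% ± 2.76 in heterozygous and 61.4% ± 1.001 in wild-type cells. Homozygous replicate 3, at 63.3%, lay closest to wild type. SLC2A3 made up 95.6% ± 1.44 of the glucose carriers SLC2A1 and SLC2A3 in homozygous, 95.5% ± 0.916 in heterozygous and 96.4% ± 0.240 in wild-type cells, which overlapped. PFKFB4 made up 23.0% ± 2.43 of PFKFB2, PFKFB3 and PFKFB4 in homozygous, 23.2% ± 3.88 in heterozygous and 16.8% ± 1.48 in wild-type cells, and PFKFB3 made up 69.9% ± 2.57, 68.2% ± 5.27 and 76.8% ± 2.24 in homozygous, heterozygous and wild-type cells. ENO1 made up 97.5% ± 0.67 of the enolases in homozygous, 96.9% ± 0.12 in heterozygous and 97.4% ± 0.86 in wild-type cells, and these values overlapped. LDHA made up 88.0% ± 5.56 of LDHA and LDHB in homozygous, 92.8% ± 2.88 in heterozygous and 91.7% ± 1.15 in wild-type cells, which also overlapped.

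**Figure D5:**
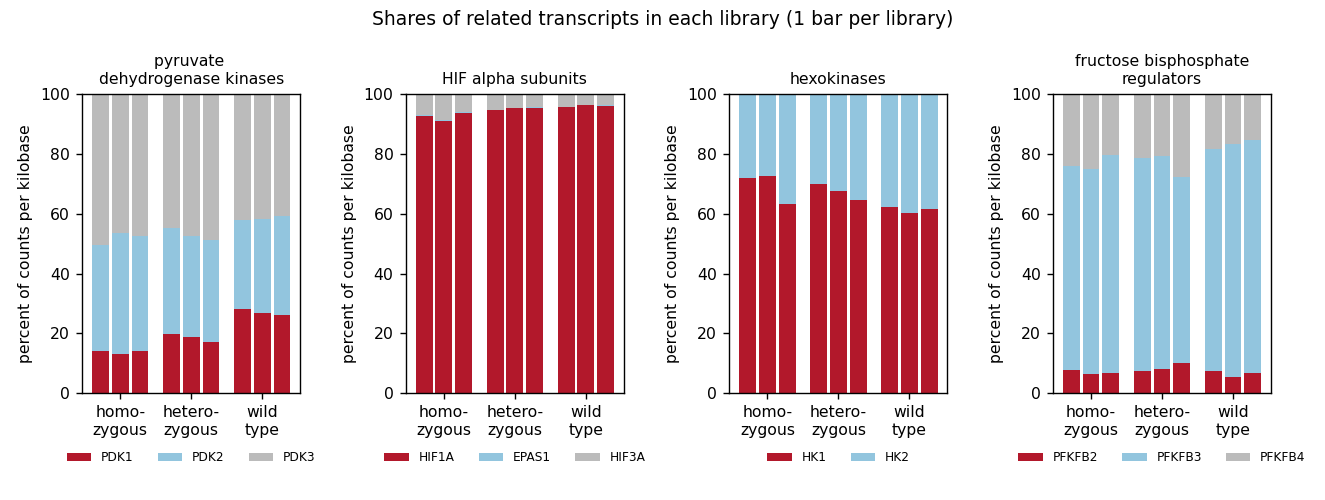
Share of each transcript (y axis, percent of counts per kilobase of merged exons) within 4 groups, 1 bar per library, with homozygous, heterozygous and wild-type libraries from left to right. The PDK1 share (red, first panel) is 13.1% to 14.2% in homozygous and 26.3% to 28.2% in wild-type libraries.

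Wider lists of the same pathways were counted in the same way. Of 28 tested further HIF targets, 3 were called between homozygous and wild-type cells (10.7%, against 7.68% of all genes), all lower, 0 in heterozygous against wild-type cells (against 1.86%) and 1 in homozygous against heterozygous cells (3.57%, against 2.21%). LOX, which cross-links collagen, had 1.09, 1.39 and 1.35 CPM in homozygous libraries, 6.67, 7.05 and 6.74 CPM in heterozygous libraries and 15.3, 9.18 and 8.35 CPM in wild-type libraries. No genotypes overlapped, and LOX fell by 3.07 on the log2 scale in homozygous against wild-type cells (SE 0.25, edgeR adjusted p = 1.37e-05) and fell by 2.38 relative to heterozygous cells (adjusted p = 0.00022). KDM4C, a histone demethylase, had 28.5, 25.2 and 38.6 CPM in homozygous libraries, 38.2, 42.6 and 55.0 CPM in heterozygous libraries and 53.9, 60.9 and 63.5 CPM in wild-type libraries, and fell by 0.95 in homozygous against wild-type cells (SE 0.16, adjusted p = 0.00303). AKAP12, a scaffold for protein kinase A, had 72.1, 58.9 and 70.3 CPM in homozygous libraries, 76.4, 83.5 and 81.8 CPM in heterozygous libraries and 101.9, 97.3 and 89.8 CPM in wild-type libraries, and fell by 0.52 (SE 0.09, adjusted p = 0.00399). VEGFA, the angiogenic factor and a widely used HIF target, had 90.7 to 99.0 CPM in homozygous, 98.5 to 138 CPM in heterozygous and 90.0 to 104.9 CPM in wild-type libraries (homozygous against wild type -0.02, 95% interval -0.28 to 0.23).

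Of 14 tested isozymes and carriers outside the main list, 1 was called in homozygous against wild-type cells (7.14%, against 7.68% of all genes). In the other comparisons 0 were (against 1.86% and 2.21%). ENO3, the muscle enolase, rose by 0.48 against wild type (SE 0.11, edgeR adjusted p = 0.0171). It had 26.4, 30.6 and 24.8 CPM in homozygous libraries, 22.3, 20.1 and 23.7 CPM in heterozygous libraries and 20.3, 19.3 and 19.3 CPM in wild-type libraries. Of 7 genes of the pentose phosphate pathway, which branches from glycolysis, 1 was called in homozygous against wild-type cells (14.3%, against 7.68%). TALDO1 (transaldolase) had 172, 212 and 181 CPM in homozygous libraries, 155, 144 and 130.0 CPM in heterozygous libraries and 139.7, 145 and 146 CPM in wild-type libraries. Homozygous TALDO1 values lay above both other genotypes, and it rose by 0.39 against wild type (SE 0.09, edgeR adjusted p = 0.0230) and by 0.40 against heterozygous cells (adjusted p = 0.0496). Between the mutants it was the 1 gene of the 7 called (14.3%, against 2.21% of all genes). In heterozygous against wild-type cells 0 of the 7 were called (against 1.86%). Of the adrenomedullin family and its receptor parts, 4 of 7 with a row were tested. In homozygous or heterozygous against wild-type cells or between the mutants 0 were called (against 7.68%, 1.86% and 2.21% of all genes). CALCRL, the receptor through which adrenomedullin signals, had at most 0.0997 CPM in any library, and its partners RAMP1 and RAMP3 were not tested either. Its partner RAMP2 was tested, with 0.249 to 0.919 CPM in homozygous, 1.10 to 1.37 CPM in heterozygous and 0.706 to 0.831 CPM in wild-type libraries. RAMP2 had a log2 fold change of -0.97 between the mutants (edgeR adjusted p = 0.204).

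Some markers of cell identity moved with genotype alongside ADM and PDK1. The 10 definitive endoderm markers summed to 7771 to 8798 CPM in homozygous, 9541 to 10498 CPM in heterozygous and 11371 to 12207 CPM in wild-type libraries. CER1 alone made up most of these sums, averaging 4630, 6124 and 7245 CPM. In 6 of 10 all homozygous libraries lay below all wild-type libraries (60%, against 15.7% of all genes), while CXCR4, GATA4, GATA6 and GSC overlapped. Of these markers 4 of 10, FOXA2, CER1, MIXL1 and HHEX, were called lower in homozygous against wild-type cells (40%, against 4.18% of all genes called lower and 7.68% called in either direction). In heterozygous against wild-type cells 0 were called (against 1.86% of all genes). All heterozygous libraries nevertheless lay below all wild-type libraries in 6 of 10 (60%, against 11.1% of all genes). The log2 fold changes of all 10 in that comparison were below 0, from -0.298 to -0.007. Mesoderm markers, 9 of 10 with a row, summed to 32.8 to 50.0 CPM in homozygous, 47.2 to 54.3 CPM in heterozygous and 58.5 to 77.6 CPM in wild-type libraries. KDR was called lower in homozygous against wild-type cells (1 of 5 tested, 20%, against 4.18% of all genes called lower and 7.68% called in either direction). MESP1, MESP2, MEOX1 and HAND1 were at or near 0. Pluripotency markers summed to 4033 to 4371, 4521 to 4689 and 4633 to 4765 CPM in homozygous, heterozygous and wild-type libraries, of which LIN28A alone averaged 2001, 1968 and 2312 CPM. Of the 10, TDGF1 was called lower in homozygous against wild-type cells (10%, against 4.18% of all genes called lower and 7.68% called in either direction). NANOG had a log2 fold change of -1.30 there without a call (edgeR adjusted p = 0.0547), and its libraries did not overlap. In 3 of 10 all homozygous libraries lay below all wild-type libraries (30%, against 15.7% of all genes). In 1 all lay above (10%, against 13.2%). NANOG was called lower in homozygous against heterozygous cells (10%, against 1.22% of all genes called lower and 2.21% called in either direction, edgeR adjusted p = 0.0401). None of the 10 was called in heterozygous against wild-type cells (against 1.86% of all genes). However, 5 had all heterozygous libraries above all wild-type libraries (50%, against 11.1% of all genes), with a log2 fold change of 1.19 for POU5F1 (edgeR adjusted p = 0.158). Homozygous replicate 3 had less POU5F1 (33.5 CPM), NANOG (1.45) and SOX2 (0.848) than replicates 1 (122, 5.27 and 5.93) and 2 (114, 5.96 and 6.39). It was also lowest for ZFP42, but highest for PRDM14 and LIN28A and between replicates 1 and 2 for the rest. Its part in the spread of SLC2A3, HK2, SLC16A3 and ENO2, where replicate 3 also stood apart, was not tested. Neuroectoderm markers summed to 1198 to 1279.6 CPM in homozygous, 1255 to 1311 CPM in heterozygous and 1359 to 1367 CPM in wild-type libraries. Of 5 tested, 0 were called in homozygous or heterozygous against wild-type cells or between the mutants (against 7.68%, 1.86% and 2.21% of all genes). SOX1 and ZIC1 were at or near 0. Trophoblast and amnion markers, 7 of 8 with a row, summed to 23.6 to 31.4, 13.6 to 14.0 and 10.1 to 13.0 CPM in homozygous, heterozygous and wild-type libraries. GATA3 and TFAP2C were called higher in homozygous against wild-type cells (2 of 3 tested, 66.7%, against 3.50% of all genes called higher and 7.68% called in either direction). TFAP2A, KRT7, GABRP and HAND1 were at or near 0. Stress genes of the amino acid and endoplasmic reticulum response, 9 in all, gave 1 call in homozygous against wild-type cells (11.1%, against 7.68% of all genes). This was ATF3, which fell. In homozygous against heterozygous cells HHEX and ATF3 were also called lower and GATA3 and TFAP2C higher. These were 10% of the endoderm, 11.1% of the stress and 66.7% of the trophoblast and amnion genes tested. Of all genes, 1.22% were called lower and 0.986% higher, 2.21% in either direction. The part of these shifts in the results for ADM and PDK1 was not tested.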

How the data were processed

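Total RNA of the 9 libraries was sequenced on an Illumina machine, per the labels. The authors deposited raw read counts per Ensembl gene, with each library in its own column. The submitters' processing notes list FastQC, Trimmomatic, HISAT2, SAMtools, HTSeq and hg38; the sources used here give no versions, annotation release or strand setting, so reads shared by overlapping genes may have been dropped or split. Genotypes and replicate numbers came from the labels. GENCODE 29 coordinates were found for 25209 of 26240 genes.

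In R 4.3.3 with edgeR 4.0.16, filterByExpr kept 16837 genes and removed 9403. TMM factors were 0.973 to 1.01, and 1 quasi-likelihood fit, with genotype as the only factor, gave the 3 two-sided comparisons. An SE is the log2 fold change divided by the square root of F. CPM values are deposited counts per TMM-scaled library size. The fit was tested on simulated data. The members, lists, isozyme groups and tests were chosen with earlier results of these data known. By rule, members are described library by library where called, or where a log2 fold change reached 0.5 in size with a mean of at least 1 CPM. BNIP3, NDRG1, EGLN3, EPAS1, SLC2A3, SLC2A1, LDHA, HK2 and ENO2 did not meet this rule. They were also given library by library, with their values known. Of each wider list the called members are named, and VEGFA, VHL, PDK2, PDK3, PDK4, CALCRL, RAMP2 and SLC2A14 were added after their values were seen. Motifs were matched as exact letters in RefSeq promoter windows; for 56 of 65 the first transcribed bases were found in a GENCODE transcript of the gene.

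Alternatives were RLE, upper quartile or no scaling factors, 2 other filters, DESeq2 1.42.0, limma-voom (limma 3.58.1), a replicate block, a test against a 1.5-fold change, thinning to the shallowest library, the 6 libraries of a comparison alone, and leaving out each library. Chi-square values per degree of freedom between replicates were 2.55 (wild-type replicates 2 and 3) to 30.6, so no pair was counted as 1 library.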

Additional observations from a re-analysis of the deposited data

How the results depend on the processing

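Of the calls among the 37 tested genes, those of ADM and PDK1 in homozygous against wild-type cells held under all 20 alternatives. Calls of single genes outside the 37, such as LOX or the markers of cell identity, were not followed through the alternatives. The count of the 37 genes called was 5 in homozygous against wild-type cells, 2 against a 1.5-fold change (glmTreat), 3 after thinning to the shallowest library, and 2 to 7 with 1 library left out; under the other alternatives it was 4 to 6. In heterozygous against wild-type cells it was 2, with 0 against a 1.5-fold change and 1 to 2 with 1 library left out. In homozygous against heterozygous cells it was 2, with 0 against a 1.5-fold change, 1 with the 6 libraries of the comparison alone and 0 to 2 with 1 library left out. P4HA2 in homozygous against heterozygous cells had a log2 fold change of -0.05 and turned to 0.092 after thinning (adjusted p = 0.753), neither called. Deviations from the genotype mean correlated at r of -0.195 to 0.245 between same-numbered libraries and -0.433 to 0.358 between others. Libraries did not all correlate best with their own number. With 3 libraries per genotype such deviations are tied to one another, so they do not show whether numbers mark a shared batch. With the replicate block the counts were 6, 2 and 2, SLC2A3 being added in homozygous against wild-type cells. Over all genes, 1293 calls in homozygous against wild-type cells became 281 against a 1.5-fold change and 651 to 2118 with 1 library left out (651 and 700 leaving out wild-type replicates 2 and 3, 2118 leaving out homozygous replicate 3). The 313 calls in heterozygous against wild-type cells became 574 with DESeq2, 492 with the block, 89 against a 1.5-fold change, 604 with the 6 libraries alone and 130 to 624 with 1 library left out. The 372 calls between the mutants became 849 with DESeq2, 67 against a 1.5-fold change, 177 with the 6 libraries alone and 141 to 377 with 1 library left out. With the mean length of basic coding transcripts, an alternative added after seeing the data, shares were 85.6% in homozygous and 92.1% in wild-type cells for HIF1A, 14.2% and 7.84% for HIF3A, 93.9% and 94.9% for SLC2A3, 77.5% and 70.9% for HK1, 66.3% and 73.9% for PFKFB3, and 92.9% and 95.3% for LDHA; the PDK1 share was 13.9% in homozygous and 27.2% in wild-type cells. Other causes of these moves were not tested. At these depths CA9, EPAS1 and ANKRD37 were too low for a fold change to be determined.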
